A study of Mus musculus with 8 samples.

Results

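The barcodes described here were those of the ascending thoracic aorta in which haemoglobin transcripts made up at least 40% of all gene UMIs (unique molecular identifiers, the counted transcript molecules). They numbered 3084 of the 48467 barcodes in the matrix, or 6.36% (exact binomial 95% interval 6.15 to 6.58%, counting error only). All symbols beginning Hba- or Hbb- were counted as haemoglobin, which took in 8 genes, and no filter on gene number or mitochondrial UMIs was applied. The barcodes were thus chosen by their haemoglobin values, which are given only as a description. The genes tested lay outside the rule. The measures compared came from 30652 barcodes with 10 or more but under 300 haemoglobin UMIs, all of them under 40% haemoglobin, chosen to part red cell genes from background RNA. The remaining barcodes held under 10 haemoglobin UMIs (13415 barcodes) or at least 300 without reaching 40% (1316 barcodes).

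The series profiled ascending thoracic aortas of 3 young wild-type mice, aged 11, 12 and 13 weeks, by droplet-based 3′ single-cell RNA sequencing with 3 hashtag antibodies (TotalSeq-B, 1 per age). No treated or mutant animals were analysed here, and with 1 animal at each age no comparison of ages was made. The tissue was digested at 37 °C for 60 min with type II collagenase and elastase, strained and depleted of dead cells, and lysis of red cells is not among the steps given. The 4 gene expression and 4 hashtag libraries were deposited together as 1 matrix. All barcodes end in 1 shared suffix, which hides the library they came from, and all 48467 were distinct.

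Mammalian erythroblasts expel their nucleus and become reticulocytes, so that the RNA in a reticulocyte was made earlier and decays as the cell matures. Reticulocytes also clear their mitochondria, ribosomes and other organelles by autophagy and the ubiquitin system, while they finish the synthesis of haem and the assembly of a membrane skeleton of spectrin, ankyrin and band 3. In a vessel sample they come from blood that stays in the lumen and the small vessels of the wall.

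To show what the globin genes and the first enzyme of erythroid haem synthesis share upstream, the 250 bases before the annotated start are given for 4 genes, on the gene's own strand, from RefSeq (GRCm38.p6). Capitals mark GATA with A or T before it and A or G after it (the motif bound by GATA1) and CACCC (the motif of KLF1), searched on both strands, and overlapping matches run together. The windows are Hbb-bs, chr7:103827929-103828178 (minus strand), Hba-a1, chr11:32283422-32283671 (plus), Alas2, chrX:150547167-150547416 (plus), and Bpgm, chr6:34476106-34476355 (plus).
Hbb-bs: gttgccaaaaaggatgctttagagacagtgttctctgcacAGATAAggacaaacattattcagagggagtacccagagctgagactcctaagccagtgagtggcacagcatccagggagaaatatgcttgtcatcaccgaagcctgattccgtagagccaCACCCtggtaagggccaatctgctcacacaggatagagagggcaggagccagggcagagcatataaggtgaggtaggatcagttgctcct
Hba-a1: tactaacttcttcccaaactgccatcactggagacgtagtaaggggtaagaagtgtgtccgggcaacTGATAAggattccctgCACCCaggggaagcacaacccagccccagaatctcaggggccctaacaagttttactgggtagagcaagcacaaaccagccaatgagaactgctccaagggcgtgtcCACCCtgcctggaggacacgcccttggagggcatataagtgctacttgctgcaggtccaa
Alas2: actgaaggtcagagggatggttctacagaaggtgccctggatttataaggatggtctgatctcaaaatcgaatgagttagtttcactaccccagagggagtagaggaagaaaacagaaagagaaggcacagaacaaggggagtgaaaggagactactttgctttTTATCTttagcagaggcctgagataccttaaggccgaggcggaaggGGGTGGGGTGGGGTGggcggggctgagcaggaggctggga
Bpgm: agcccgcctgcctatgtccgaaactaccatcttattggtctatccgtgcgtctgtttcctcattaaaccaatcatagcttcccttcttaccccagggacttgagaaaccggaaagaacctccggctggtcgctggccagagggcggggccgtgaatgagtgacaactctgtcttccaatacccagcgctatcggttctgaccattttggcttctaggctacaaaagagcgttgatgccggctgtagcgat
The Hbb-bs window held 1 GATA match and 1 CACCC match, Hba-a1 held 1 and 2, Alas2 held 1 and 3, and Bpgm held 0 of either. Of all 32851 windows of this length in the table, 26.5% held the GATA letters, 52.0% held CACCC and 11.8% held both. Among 13 windows of 10 of the 15 genes with the largest rise described below, 5 held GATA (38.5%) and 8 held CACCC (61.5%). A match shows only that the letters are present in the window.

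Haemoglobin-dominated barcodes held few non-globin UMIs and few genes. They held a median of 1171 haemoglobin UMIs (508 to 4382) and 753 non-globin UMIs (355 to 2951; quartiles 662 and 871), from a median of 286 genes. The comparison barcodes held a median of 67 haemoglobin UMIs, 1997.5 non-globin UMIs and 930 genes. The medians of all gene UMIs were closer, at 1946 in red cell barcodes and 2074 in comparison barcodes. The rule itself favours a low non-globin count. Only 101 of the 3084 red cell barcodes reached 500 genes, and 13 would have passed a filter of 500 genes, 1000 UMIs and at most 10% mitochondrial UMIs among all gene UMIs. All barcodes of the matrix held at least 1228 gene UMIs, so red cells with fewer transcripts than that are not part of the data. Haemoglobin took 4.25% of all 166848700 gene UMIs, of which 52.7% fell in the red cell barcodes and 32.8% in the comparison barcodes.

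The haemoglobin share had a separate upper mode with a median of 60.5% (quartiles 54.3 and 64.8%). The count of barcodes per step of 5 percentage points lay between 93 and 107 from 20 to 40%, and was 911 between 60 and 65% and 39 between 75 and 80%. No barcode exceeded 79.8%. Just outside the threshold, the 37 barcodes from 38 to 40% held a median of 1278 non-globin UMIs with Alas2 at 2792 UMIs per 1000000 non-globin UMIs (CPM hereafter). Just inside it, the 54 barcodes from 40 to 42% held 982 with Alas2 at 2517 CPM. The label of red cells was checked on the 9 erythroid markers outside the rule (among them Alas2, Bpgm, Bnip3l, Slc4a1, Fech, Ube2l6 and Tent5c). All 9 were detected, and together they held 2.00% of non-globin UMIs, against 0.0575% in the comparison barcodes and 0.0178% in barcodes with under 10 haemoglobin UMIs.

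**Figure D1:**
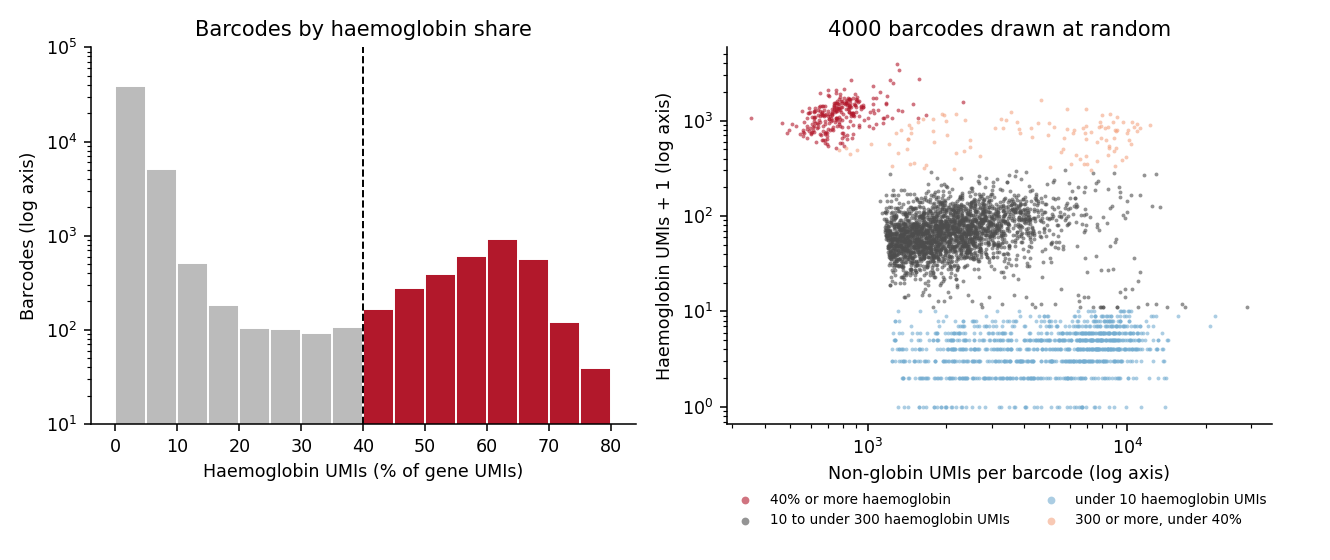
Left, number of barcodes (log axis) in steps of 5 percentage points of the haemoglobin share of gene UMIs, with the 3084 red cell barcodes in red to the right of the dashed line at 40%. Right, haemoglobin UMIs plus 1 against non-globin UMIs (both log axes) for 4000 barcodes drawn at random: the red cell barcodes lie apart at a median of 1171 haemoglobin and 753 non-globin UMIs, and the comparison barcodes form a band around a median of 67 haemoglobin UMIs.

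The hashtags gave 510 of the 3084 barcodes (16.5%) a single label, 199 several and 2375 none. The single calls were 197 for hashtag 1 (11 weeks), 168 for hashtag 2 (12 weeks) and 145 for hashtag 3 (13 weeks). Median hashtag UMIs of the red cell barcodes were 95, 291 and 295 for the 3 antibodies, against 94, 287 and 295 in barcodes with under 10 haemoglobin UMIs and 131, 381 and 397 in the comparison barcodes. A second caller, which asks that the highest hashtag exceed the next at least 2-fold relative to the overall composition, repeated the call for 66 of 197, 68 of 168 and 74 of 145 of these barcodes and left the others without a call, with 0 moved to a different hashtag. How much antibody signal belonged to the red cells was not tested, so the animal of a red cell barcode is uncertain, and values by hashtag below are sums over the barcodes so called.

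Adult globins made up the haemoglobin transcripts. Of the haemoglobin UMIs in the red cell barcodes, Hbb-bs (adult beta globin) held 65.5%, Hba-a1 (adult alpha globin) 12.9%, Hbb-bt (the second adult beta gene) 11.8% and Hba-a2 9.90%. By hashtag the shares were 65.7, 66.2 and 65.4% for Hbb-bs and 11.3, 11.8 and 11.9% for Hbb-bt. The embryonic genes were nearly absent, with 2 UMIs of Hbb-bh1, 1 of Hbb-y and 0 of Hba-x and Hbb-bh2. There were 3.40 beta UMIs per alpha UMI, with 3.36, 3.55 and 3.40 in the 3 hashtags; the comparison barcodes had 3.74 overall. Hba-a1 and Hba-a2, and Hbb-bs and Hbb-bt, are near-identical copies, so reads may be split between them in a way these counts cannot show.

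Single barcodes varied in their globin make-up. The Hbb-bt share of haemoglobin UMIs ran from 4.12% at the 5th to 16.6% at the 95th percentile of barcodes, that of Hbb-bs from 59.1 to 74.1%, and that of both alpha genes from 18.6 to 27.0% around a median of 22.7%.

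Beyond globin, the RNA of the red cell barcodes was set against the comparison barcodes in sums of the single-hashtag barcodes, 3 per class, with haemoglobin genes removed (edgeR quasi-likelihood test with the hashtag as a block, Benjamini-Hochberg adjustment). The sums held 176731, 148495 and 128671 non-globin UMIs in red cell barcodes and 4489692, 2140298 and 1979762 in comparison barcodes. They drew on 510 red cell barcodes and on 3360 of the 30652 comparison barcodes (11.0%). Of 7897 genes tested, 319 were higher in red cell barcodes (4.04%) and 150 were lower (1.9%), with a median log2 fold change of -0.16. Without scaling factors, so that the total of non-globin UMIs sets the scale, 198 were higher (2.51%) and 2768 lower (35.1%), and the median was -0.98. The shift of 0.82 between the scales bears on every change smaller than it. A gene could pass the filter through the red cell sums alone. This held for 426 of the genes tested and 55 of those called higher, which would not have passed on the comparison sums, and for 17 of the 144 entries tested over the 10 lists of red cell function (12 of them called higher). Counts of list members below therefore describe the members that passed. Nothing in the labels ties these sums to separate preparations. The p-values rest on the spread between hashtag sums, which edgeR pools in part over all genes tested. They therefore do not measure the spread of a single gene between hashtags. Without hashtag 1 the edgeR adjusted p was 4.71e-05 for Alas2 and 0.000105 for Bpgm, far larger than with all hashtags.

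The 15 genes named for the largest rise had log2 fold changes between 5.75 and 6.81. They included Car2, Tspo2, Isg20, Trim10, Alas2, Mkrn1, Bpgm, Slc4a1, Rsad2, Apol11b, Ube2l6 and Rec114, and 1 direction in all 3 hashtags was part of the naming rule. The genes named here are described with their groups below, except Apol11b, an apolipoprotein L family gene, and Rec114, known for its part in meiotic recombination. Apol11b lay at 221, 283 and 179 CPM in the red cell sums and 7.13, 5.61 and 8.08 CPM in the comparison sums. Rec114 lay at 136, 189 and 109 CPM against 6.01, 4.21 and 3.03 CPM.

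Haem synthesis was represented by its first and last steps. Alas2, the erythroid enzyme that starts haem synthesis, lay at 4408, 4896 and 4671 CPM in the 3 red cell sums and at 119, 115 and 108 CPM in the comparison sums. The groups did not overlap, and the log2 fold change was 6.16 ± 0.08 (SE; edgeR adjusted p = 3.83e-72). Fech, ferrochelatase, which inserts iron into the ring in the last step, lay at 888, 889 and 1026 CPM against 43.2, 57.9 and 42.9 CPM (log2 fold change 5.11 ± 0.15). Slc25a37 (mitoferrin, which brings iron into mitochondria) averaged 1511 ± 217 CPM (SD, n = 3) against 52.6 ± 1.86 CPM. Slc25a39, a mitochondrial carrier of glutathione, averaged 804 ± 68.8 CPM against 42.3 ± 3.00 CPM.

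The middle of the haem pathway was sparse. Of the 28 members of the haem and iron list, 15 passed the filter on low counts, and of these 8 were higher, 0 were lower and 7 did not pass the test (median log2 fold change 1.27, against -0.16 over all genes tested). The 8 were Alas2, Fech, Slc25a37, Slc25a39, Glrx5 (iron-sulphur cluster assembly), Blvrb (biliverdin reductase B) and the ferritin chains Ftl1 and Fth1. Urod held 111 UMIs over all red cell barcodes, Alad 22, Cpox 17, Ppox 15 and Uros 8, against 13075 of Alas2 and 2781 of Fech. Tfrc, the transferrin receptor that immature erythroid cells use to take up iron, held 28 UMIs. In ferritin the chains differed: Ftl1, the light chain, lay at 4730, 4687 and 4065 CPM against 542, 608 and 612 CPM. Fth1, the heavy chain, lay lower on the CPM scale, at 7209, 8270 and 7313 against 9711, 9991 and 9544 CPM, and its call as higher (log2 fold change 0.46) came with scaling, since without it the value was -0.36.

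The globin partners outside the rule were the theta-like globins Hbq1a and Hbq1b. The other members, Hp and Hpx, did not pass the filter on low counts, and both theta-like globins passed it through the red cell sums alone, so their calls as higher add nothing to their levels. Hbq1a lay at 84.9, 60.6 and 77.7 CPM against 1.34, 1.40 and 2.02 CPM, and Hbq1b at 45.3, 87.5 and 93.3 CPM against 0.891, 3.74 and 1.01 CPM. Their sequences are close, and the split of reads between them is uncertain.

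In glycolysis 1 step stood out. Bpgm makes 2,3-bisphosphoglycerate, the compound that lowers the oxygen affinity of haemoglobin. It lay at 3033, 3037 and 3513 CPM against 86.0, 94.4 and 69.2 CPM (log2 fold change 6.06 ± 0.09, edgeR adjusted p = 6.58e-69), and it was the 1 gene called among the 14 tested members of the list, whose median was -0.06. Without scaling factors 7 members of this list were lower (median -0.88). Aldoa, the aldolase, lay at 215, 168 and 233 CPM against 241, 253 and 314 CPM and did not pass (log2 fold change 0.45, edgeR adjusted p = 0.119; -0.38 without scaling, adjusted p = 0.0575). Gapdh lay at 249, 128 and 109 CPM against 262, 274 and 290 CPM (log2 fold change 0.12, edgeR adjusted p = 0.874), and without scaling it passed as lower (-0.71, edgeR adjusted p = 0.00216). Pklr, the red cell pyruvate kinase, held 0 UMIs in both classes.

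Membrane and skeleton transcripts split into a few that were far higher and many at low levels. Of 29 members 16 were tested, 7 were higher and 0 lower (median 0.77). Slc4a1, the anion exchanger band 3, lay at 84.9, 175 and 210 CPM against 4.01, 4.21 and 2.53 CPM. Its sums did not overlap between the classes, and among the red cell sums that of hashtag 1 was the lowest. Epb41, protein 4.1, was the most abundant, at 1709, 1643 and 1912 CPM against 88.0, 87.4 and 81.3 CPM. Also called were Mpp1 (the palmitoylated protein p55), Aqp1 (the water channel) and Bsg (basigin). Bsg lay at 243, 189 and 241 CPM against 225, 230 and 236 CPM, overlapping between the classes, and its value was 0.79 with scaling and -0.03 without; it did not pass without hashtag 1 (edgeR adjusted p = 0.375). Sptb, beta spectrin, held 20 UMIs over all red cell barcodes, Ank1 28, Epb42 50, Kel 15, Rhag 11 and Ermap 0.

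Transcripts of organelle clearance and ubiquitin were mostly higher. Of 27 members 24 were tested, 16 were higher and 0 lower (median 2.36). Mkrn1, a ubiquitin ligase, lay at 3440, 3946 and 4119 CPM against 94.7 ± 8.55 CPM (SD, n = 3). Ubb, polyubiquitin B, lay at 5494, 5603 and 5588 CPM against 1381, 1390 and 1279 CPM. Bnip3l (NIX), the receptor that marks mitochondria for autophagy in reticulocytes, lay at 2263, 2094 and 2300 CPM against 138, 153 and 133 CPM. These 3 genes were at near-equal levels in the 3 red cell sums. Ube2l6, a conjugating enzyme for ubiquitin and ISG15, lay at 1290, 1273 and 1150 CPM against 38.3, 41.1 and 36.4 CPM. Trim10, a ubiquitin ligase of erythroid cells, lay at 84.9, 80.8 and 117 CPM against 0.891, 3.74 and 2.02 CPM. Ube2o, the ligase that removes ribosomes in reticulocytes, had a log2 fold change of 5.09 ± 0.20, and the autophagy proteins Gabarapl2 and Map1lc3b had 4.05 ± 0.09 and 1.91 ± 0.10.

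Antioxidant enzymes were led by Gpx1, glutathione peroxidase, at 4770, 4256 and 5526 CPM against 598, 611 and 576 CPM (log2 fold change 3.84 ± 0.07). Of 15 members tested 6 were higher and 0 lower (median 0.48). Prdx2, the red cell peroxiredoxin, averaged 891 ± 108 CPM (SD, n = 3) against 180.5 ± 9.42 CPM, and Cat, catalase, had a log2 fold change of 3.50 ± 0.22. Gclm, a subunit of the enzyme that makes the glutathione precursor, averaged 372 ± 83.5 CPM against 57.4 ± 9.32 CPM. Sod1 and Gpx4 were called at smaller values of 0.77 and 0.48, and Gpx4 was at -0.35 without scaling and did not pass without hashtag 1 (edgeR adjusted p = 0.536). Prdx1 did not pass (-0.19).

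Other transcripts known from reticulocytes were largely present. Of 33 members 30 were tested, 20 were higher and 0 lower (median 2.20). Isg20, an exonuclease, lay at 1132, 1017 and 1181 CPM against 21.8, 20.6 and 18.2 CPM. Car2, carbonic anhydrase II, which hydrates carbon dioxide, lay at 458, 572 and 956 CPM against 9.13, 10.7 and 9.09 CPM. In Car2 and in Rsad2 the sum of hashtag 3 was the highest. Rsad2 (viperin, an antiviral enzyme) lay at 719, 808 and 1236 CPM against 26.7, 25.7 and 19.7 CPM. Tspo2, an erythroid relative of the mitochondrial translocator protein, lay at 73.6, 114 and 101 CPM against 1.56, 0.467 and 2.53 CPM. Tent5c, a poly(A) polymerase, lay at 2133, 1852 and 2122 CPM against 70.4, 72.4 and 67.2 CPM.

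Several erythroid transcription factors and cell cycle genes were near the limit of detection, though others on both lists were not. The 16 factors together held 947 UMIs, with at least 1 in 728 of the 3084 barcodes (0.0379% of non-globin UMIs, against 0.0682% in comparison barcodes). The 11 cell cycle genes held 1150 UMIs, 664 of them of Ube2c, with at least 1 in 823 barcodes (0.0460% against 0.0385%). Klf1, Gfi1b and Bcl11a held 0 UMIs over all 3084 barcodes, and Gata1 held 3, Tal1 6 and Nfe2 12. After every barcode was thinned to 662 non-globin UMIs (759 shallower red cell barcodes left out), Klf1 was found in 0 of 2325 barcodes, which allows a share of barcodes with a UMI of up to 0.129% (3 counts). This limits detection at this depth, not the share of cells that hold the transcript. In the comparison barcodes, thinned alike, the share was 0.00979%. Of the 9 factors tested, Lmo2 alone was called higher, at 50.9, 74.1 and 101 CPM against 21.2, 38.8 and 31.8 CPM, and it did not pass without hashtag 1. Among the 6 cell cycle genes tested, Ube2c alone was called: it lay at 277, 303 and 256 CPM against 13.6, 7.94 and 10.6 CPM, a log2 fold change of 5.47 ± 0.27. Ube2c also stands on the ubiquitin list. It passed the filter on low counts through the red cell sums alone, so its call as higher adds nothing to its level. Mki67 held 16 UMIs, Top2a 9, Cdk1 3 and Pclaf 0, so the level of Ube2c was not shared by these genes of division. Over the 10 lists of red cell function, mitochondrial genome included, 0 members were lower by edgeR; at an unadjusted p under 0.05 there were 4, of which 3 were transcription factors, and DESeq2 called 0. Without scaling factors 31 entries of these lists were lower by edgeR, 7 of them in glycolysis and 6 transcription factors, and 65 were higher.

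The mitochondrial genome supplied a median of 44.3% of non-globin UMIs per red cell barcode (quartiles 38.8 and 49.8%). The quartiles were 15.4 and 25.5% in comparison barcodes and 8.92 and 20.6% in barcodes with under 10 haemoglobin UMIs. All 13 protein genes were called higher, with log2 fold changes between 1.87 and 2.86. mt-Co3, a subunit of cytochrome oxidase, lay at 90024, 87626 and 91396 CPM against 37646, 34128 and 36027 CPM. Per red cell barcode the mean count of mt-Co3 was 73.4 UMIs. The 13 genes together held 1.10636e+06 UMIs in the 3084 red cell barcodes and 1.44703e+07 in the 30652 comparison barcodes. That is fewer per barcode in the red cell class. The calls above thus describe a higher share of non-globin UMIs, not a higher count per barcode. Mitochondrial UMIs of the red cell and of background RNA in the same droplet cannot be told apart in these counts.

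**Figure D2:**
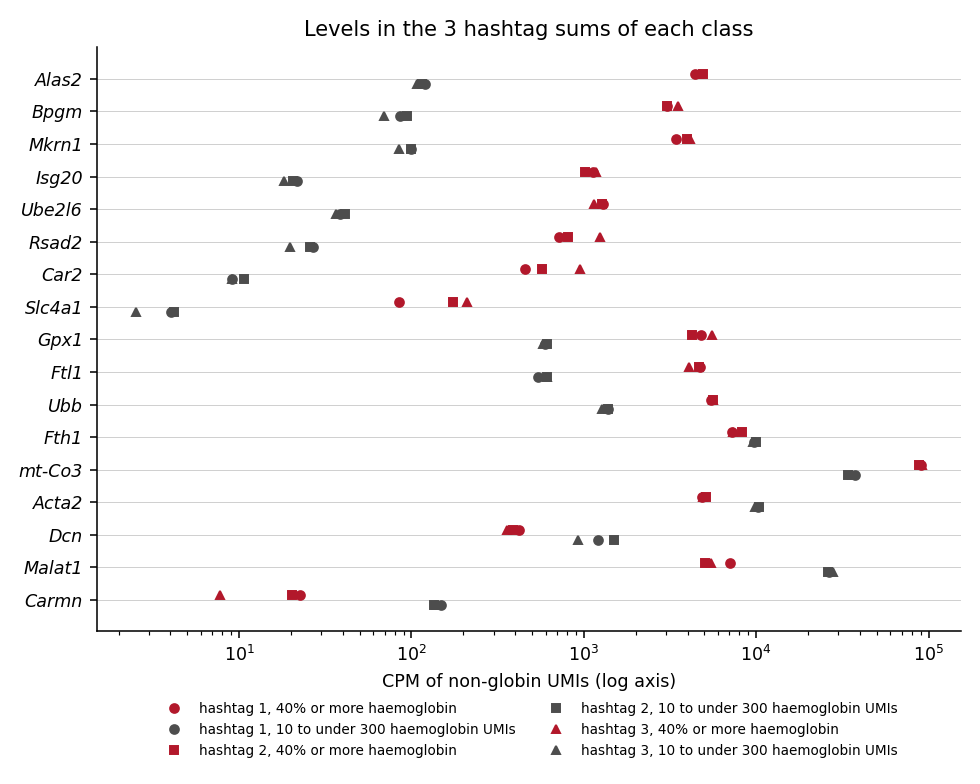
Levels in CPM of non-globin UMIs (log axis) of named genes in the 3 hashtag sums of each class, red for red cell barcodes and grey for comparison barcodes, with a symbol shape for each hashtag. Erythroid genes such as Alas2 (4408 to 4896 against 108 to 119 CPM) are far apart, while Fth1, Acta2 and Malat1 lie lower in the red cell sums on this scale.

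Transcripts of the vessel wall were present in every red cell barcode. The 10 smooth muscle markers gave a median of 12 UMIs per barcode, were seen in all 3084 barcodes and held 1.50% of non-globin UMIs, against 3.03% in the comparison barcodes. Acta2, smooth muscle actin, lay at 4838, 5118 and 4896 CPM against 10295, 10424 and 9893 CPM. Its log2 fold change was -0.22 with scaling (edgeR adjusted p = 0.0273) and -1.04 without, and against barcodes with under 10 haemoglobin UMIs it was -0.06 and did not pass. Of the 10 markers 3 were lower (Acta2, Tagln, Myh11) and 0 higher. Of the 10 fibroblast markers 7 were lower and 0 higher, such as Dcn, decorin, at 419, 391 and 358 CPM against 1211, 1504 and 920 CPM. Of all genes tested 1.9% were lower. Without scaling factors 9 smooth muscle and 10 fibroblast markers were lower, against 35.1% of all genes. Against barcodes with under 10 haemoglobin UMIs, 2 smooth muscle markers were lower and 1 higher. In that contrast 5 fibroblast markers were lower and 0 higher, against 2.62% of all genes lower and 2.69% higher. Without hashtag 1, which has the deepest sums, 0 of the 7 fibroblast calls and 1 of the 3 smooth muscle calls (Myh11) passed.

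The largest falls named were of mixed kinds. Malat1, a non-coding RNA kept in the nucleus, lay at 7073, 5051 and 5440 CPM against 26517, 26044 and 27761 CPM (log2 fold change -1.38 ± 0.07), and 62.8% of thinned red cell barcodes held a UMI of it against 99.0% of comparison barcodes. Carmn, a non-coding RNA of smooth muscle, lay at 22.6, 20.2 and 7.77 CPM against 149, 135 and 139 CPM, a log2 fold change of -2.18 ± 0.40. The other 8 of the 10 named for the largest fall were Sgcd and Dag1 (sarcoglycan and dystroglycan), Mast4 (a kinase), Cytl1 (a secreted protein), Osr1 and Kmt2a (regulators of transcription), Ahnak2 (a large scaffold protein) and Kdelr2 (a receptor that returns proteins to the endoplasmic reticulum). Their log2 fold changes lay between -1.33 and -2.13. Of the 10, only Malat1 passed when hashtag 1 was left out, and Kdelr2 did not pass against barcodes with under 10 haemoglobin UMIs.

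Markers of other blood cells were few. Over the 3084 barcodes, 161 held at least 1 UMI of the 10 platelet markers and 16 held 5 or more. Pf4 (platelet factor 4) lay at 84.9, 215 and 23.3 CPM against 18.9, 39.2 and 46.0 CPM, and Ppbp at 33.9, 141 and 7.77 CPM against 6.01, 6.07 and 10.1 CPM; in both the red cell sum of hashtag 2 was highest and that of hashtag 3 lay below its comparison sum. The neutrophil markers S100a8 and S100a9 were called higher, but S100a8 lay at 5.66, 13.5 and 358 CPM against 12.0, 29.4 and 85.9 CPM, so that hashtag 3 alone was high. Over all red cell barcodes, 81.3% of the neutrophil UMIs came from 10 barcodes. Against barcodes with under 10 haemoglobin UMIs, 293 of 10894 genes tested were higher (2.69%) and 285 lower (2.62%). Igkc, an immunoglobulin light chain, was called higher against the comparison barcodes (1.52) and lower against barcodes with under 10 haemoglobin UMIs (-0.76). Of 9 endothelial markers tested 3 were higher (Fabp4, Kdr and Gpihbp1) and 0 lower against the comparison barcodes (median 0.90), 1 higher and 1 lower without scaling, and 0 higher and 3 lower against barcodes with under 10 haemoglobin UMIs (median -0.70). Fabp4 had log2 fold changes of 1.27 and -0.14 in these contrasts, and did not pass in the second. Of the 10 T cell markers, Lck and Trbc2 alone passed the filter, which they would not have done on the comparison sums. They held 19 and 32 UMIs over all red cell barcodes and were called higher. Against barcodes with under 10 haemoglobin UMIs 10 were tested and 1 was higher. None of the 4 calls on neutrophil and platelet markers, nor these 2, nor Igkc passed without hashtag 1. Of 6 macrophage markers tested 0 passed by edgeR or DESeq2, and 0 had an unadjusted p under 0.05.

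The erythroid markers outside the rule were at a higher level in each step of haemoglobin share. They held 0.0171% of non-globin UMIs in the 768 barcodes without haemoglobin, 0.0185% up to 1%, 0.0544% from 1 to 5%, 0.136% from 5 to 20%, 0.570% from 20 to 40%, 1.43% from 40 to 60% and 2.60% from 60 to 80%. The smooth muscle share stood at 2.90 to 3.22% below a haemoglobin share of 20% and at 1.43 to 1.58% above it. The fibroblast share was 0.555% from 20 to 40% and 0.217% from 40 to 60%. The mitochondrial share was 47.1% from 40 to 60% and was 41.4% from 60 to 80%.

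**Figure D3:**
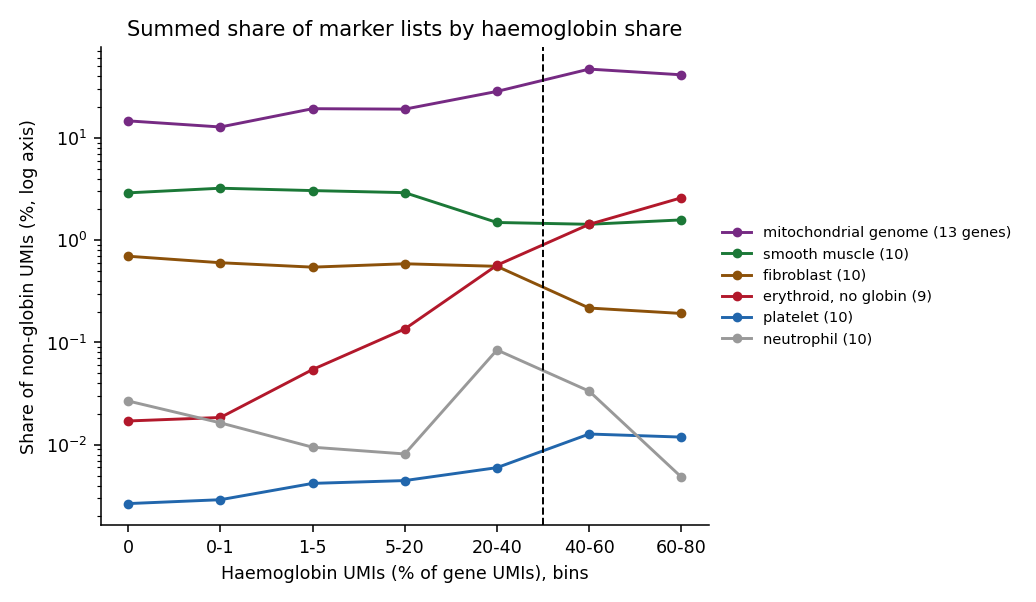
Summed share of non-globin UMIs (percent, log axis) held by 6 marker lists in 7 bins of haemoglobin share, with the dashed line at the 40% threshold. The erythroid list goes from 0.0171 to 2.60%, and the smooth muscle list from 2.92% to 1.49% between the bins from 5 to 20% and from 20 to 40%.

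To describe which genes travel with haemoglobin in the background, UMIs were counted per 1000 haemoglobin UMIs in each class (exact Poisson 95% intervals, counting error only). The classes were themselves set by haemoglobin UMIs, which are also the divisor here. For a gene that other cells make, a high value in barcodes with few haemoglobin UMIs therefore follows largely from the rule and is a description only. Alas2 stood at 3.50 (3.44 to 3.56) in red cell barcodes, 3.78 (3.70 to 3.86) in comparison barcodes, 3.78 (3.23 to 4.39) in barcodes with under 10 haemoglobin UMIs and 4.01 (3.89 to 4.14) in the other barcodes with at least 300. Slc4a1 likewise stood at 0.139, 0.125, 0.110 and 0.121. The 4 values of each of these genes lay close together, although the intervals of Alas2 in red cell and comparison barcodes did not overlap.

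A second set had like values in the 3 classes with more haemoglobin and higher ones in barcodes with under 10 haemoglobin UMIs. Isg20 stood at 0.750 in red cell barcodes, 0.734 in comparison barcodes and 0.709 in those with at least 300, but at 6.43 in those with under 10. Bpgm stood at 2.40, 2.69 and 2.41, but at 21.4 in the last class, and Mkrn1 at 2.59, 3.20 and 2.79, but at 43.7. The values of other genes differed between all 4 classes: Bnip3l stood at 1.60, 4.74, 2.45 and 186, and Acta2 at 3.65, 342, 81.8 and 18240.

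**Figure D4:**
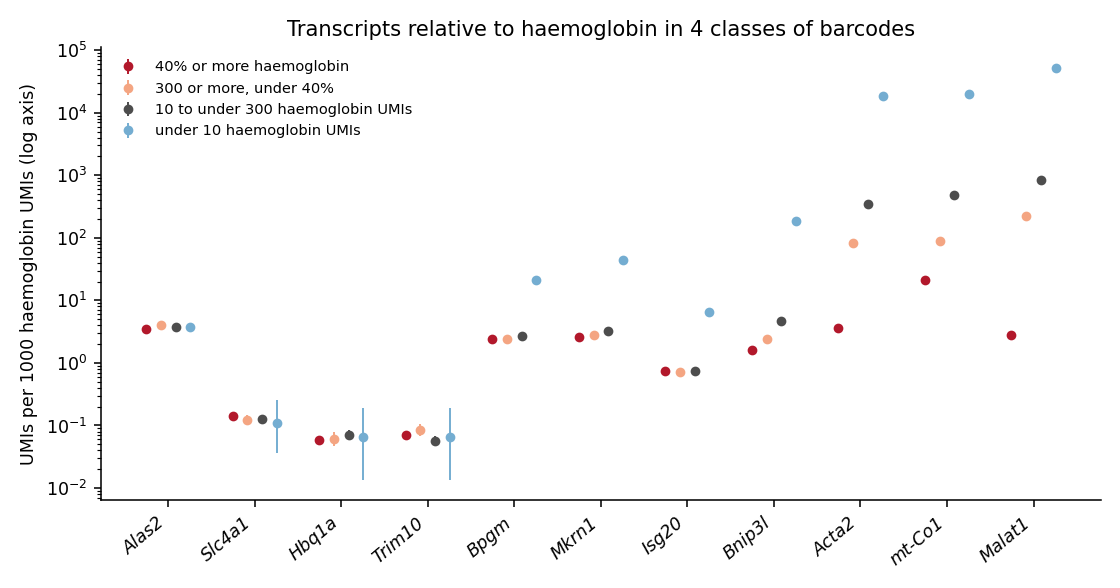
UMIs per 1000 haemoglobin UMIs (log axis) of named genes in 4 classes of barcodes, with exact Poisson 95% intervals. Alas2, Slc4a1, Hbq1a and Trim10 lie at about the same height in every class, Bpgm, Mkrn1 and Isg20 stand higher in barcodes with under 10 haemoglobin UMIs (21.4, 43.7 and 6.43), and Acta2 spans 3.65 to 18240.

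The share of barcodes with a UMI was higher in red cell than in comparison barcodes for each gene given here, though the order of genes differed between the classes. At 662 non-globin UMIs per barcode, Alas2 was detected in 93.7% of 2325 red cell barcodes (92.7 to 94.7%, exact binomial) and 8.29% of 30652 comparison barcodes (7.98 to 8.60%). Without thinning the shares were 94.8 and 23.6%, at median depths of 753 and 1997.5 non-globin UMIs. Mkrn1 was detected in 80.3 and 6.94%, Bpgm in 77.2 and 5.90%, and Bnip3l in 71.4 and 9.58%. Car2 was found in 20.3 and 0.838% and Slc4a1 in 10.4 and 0.352%. Slc4a1 and Car2 were thus seen in a minority of red cell barcodes at this depth.

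When the red cell barcodes were ordered by the Hbb-bt share of their haemoglobin UMIs and split into 5 groups of equal size, a split chosen after the data were seen and given with no test, the lowest group (0.675 to 8.18% Hbb-bt, 617 barcodes) held 33.7 CPM of Car2 and the highest (14.1 to 21.4%, 617 barcodes) held 1328 CPM. The steps between ran through 326, 724 and 913 CPM. Slc4a1 went from 15.7 CPM (7 UMIs) through 98.2, 224 and 282 to 376 CPM (208 UMIs). These genes rank 1 and 2 of the 588 ranked by this ratio. Over all red cell barcodes both stood higher in each group than in the one before, but not within every subset: between the third and the fourth group Slc4a1 went from 150 to 86.8 CPM in hashtag 1 (5 and 4 UMIs), and Car2 from 601 to 405 CPM in hashtag 2.

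Abundant transcripts differed in how far they followed. Gpx1 was 8.64 times higher in the highest than in the lowest group (911 and 7864 CPM), Ube2c 6.37 times, Rsad2 5.85 times, Bpgm 4.44 times, and Mkrn1 and Bnip3l both 3.46 times. Alas2 was 1.49 times, Ube2l6 1.43 times, Ftl1 1.16 times and Fth1 1.15 times higher. Smooth muscle Acta2 (0.932 times) and mt-Co1 (0.919 times) lay slightly lower. Of 588 genes ranked, the median ratio was 0.969, and 88 were over 2. The alpha globin share had nearly the same median in the lowest and the highest group, 23.0% in both.

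Depth and haemoglobin content moved with this order. From the lowest to the highest group, median haemoglobin UMIs went from 778 to 1388, median non-globin UMIs from 701 to 830 and the mitochondrial share from 48.3 to 41.8%, while median hashtag UMIs were 711 and 699. Among barcodes with 1000 to 1300 haemoglobin UMIs, a limit also set after the data were seen, the ratio was 2.87 for Gpx1, 2.23 for Bnip3l, 1.95 for Mkrn1 and 1.84 for Bpgm, and Car2 held 0 UMIs in the 71 barcodes of the lowest group and 76 in the 165 of the highest. Alas2 was at 0.997 and Ftl1 at 0.849 there, and Slc4a1 went from 187 to 117 CPM between the third and the fourth group. Within single hashtags the Gpx1 ratio was 13.1, 6.01 and 7.92 and the Bpgm ratio 3.25, 3.01 and 3.50. The Alas2 ratio was 1.97, 1.12 and 1.18, and that of Ube2l6 was 2.10, 0.879 and 0.929, so Ube2l6 was not higher in every hashtag. Across the 3084 barcodes the Hbb-bt share and the share of the 9 erythroid markers had a Pearson r of 0.52 and a Spearman rho of 0.52, as a description of barcodes that share libraries and depth. The part of depth in these ratios beyond that limit was not tested.

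**Figure D5:**
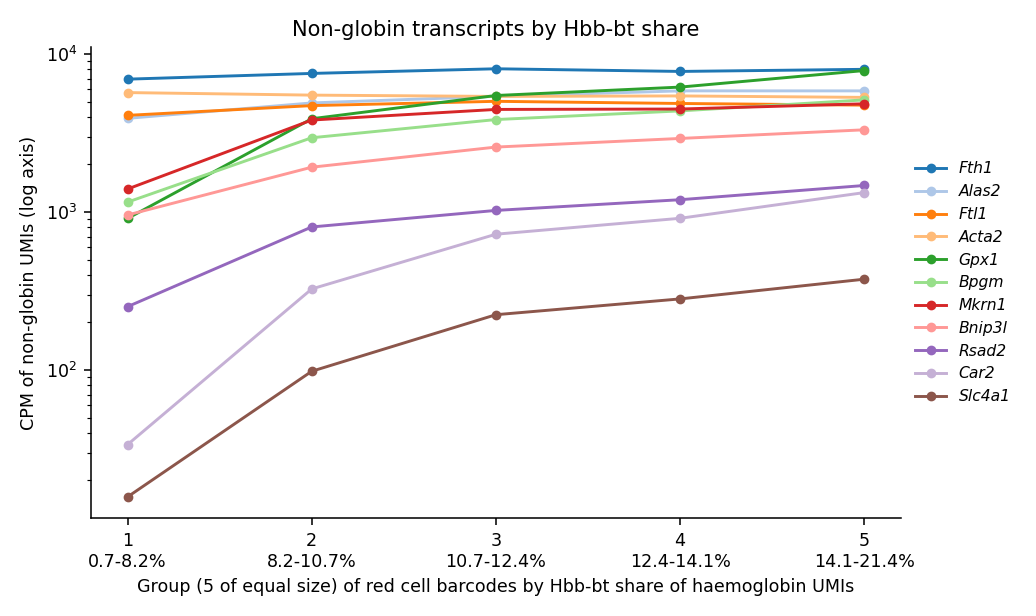
Levels of named genes in CPM of non-globin UMIs (log axis) in 5 groups of the red cell barcodes ordered by the Hbb-bt share of haemoglobin UMIs, with the range of that share under each group. Car2 and Slc4a1 go from 33.7 and 15.7 CPM to 1328 and 376 CPM, while Fth1, Ftl1 and Acta2 stay nearly level.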

How the data were processed

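Gene and hashtag UMIs were counted with Cell Ranger 6.0.1, per the file headers, and the deposited values are raw UMI counts for 32285 genes, 3 hashtags and 48467 barcodes, not normalized by the authors. The submitters' processing notes name Seurat 4.0.5 and the build mm10. The match of hashtags 1, 2 and 3 to 11, 12 and 13 weeks is that of the deposited hashtag reference. Of the gene IDs, 32158 matched the table of gene names.

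Barcodes were classed by haemoglobin UMIs alone, with no doublet calling. Hashtags were called with HTODemux (Seurat 5.3.0, centred log ratios per hashtag, quantile 0.99). Counts without the 8 haemoglobin genes were summed per class and hashtag and the 6 sums entered the quasi-likelihood test of edgeR 4.0.16 in R 4.3.3 (functions glmQLFit and glmQLFTest). Library sizes were scaled by TMM, low counts were filtered by filterByExpr, and the hashtag was a block, because both classes carry the same hashtags, 1 per animal, as far as the calls are right. Genes with a Benjamini-Hochberg adjusted p under 0.05 were called. DESeq2 1.42.0, other scalings, thresholds, callers and comparison barcodes were alternatives. In a test on simulated data of 8123 genes for this comparison, 68.0% of 97 genes changed by 2 on the log2 scale and 21.9% of 96 changed by 1 were recovered, with 1 false call. Apart from the changed genes, both classes were simulated from a shared profile, with a fixed dispersion and no difference between hashtags. The real classes differ far more in make-up, so these rates are not error rates of the calls above.

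The genes named were those given as markers outside the rule, the 15 with the largest rise and the 10 with the largest fall among genes called with 1 direction in all 3 hashtags and a level of at least 100 CPM in the higher class, and up to 6 members of each list at or above 100 CPM. Other members were named after their values were seen. The red cell rule and the gene lists were chosen with earlier results of these data known. Of 280 list entries 278 were found; 2 entries were not analysed here. Some genes that meet the naming rule are not reported here. Intervals and limits cover counting error only.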

Additional observations from a re-analysis of the deposited data

How the results depend on the processing

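With no scaling factors 198 genes were higher and 2768 lower, and the signs of Fth1 (-0.36), Gapdh (-0.71), Bsg (-0.033), Selenow (-0.74), Gpx4 (-0.35) and Aldoa (-0.38, not called on either scale) turned, because the total of non-globin UMIs then sets the scale. The fit with no replicate block gave 331 higher and 167 lower against 319 and 150 with the block on the hashtag, where the pairing comes from the shared hashtag. No paired analysis was possible by library number because the numbered gene expression and hashtag libraries share 1 matrix. Leaving out 1 hashtag in turn gave 134 to 278 higher and 5 to 93 lower, and the lowest of both came without hashtag 1. The count of higher genes was 273 with DESeq2, 249 without a filter on low counts, 185 with ratio calls of hashtags, 194 at 60% haemoglobin or more, 204 with comparison barcodes of matched depth, 293 against barcodes with 0 to 9 haemoglobin UMIs and 320 without mitochondrial genes. The count of lower genes in the same order was 35, 311, 83, 185, 86, 285 and 175. Genes tested, in that order, numbered 7897, 17684, 5222, 7723, 1410, 10894 and 8198, against 7897 in the main fit. The counts are thus not shares of a common total, and fewest genes could be tested with matched depth (1410) and ratio calls (5222). The cause of the differences in counts was not tested beyond that. Ratio calls also turned Gpx4 (-0.11) and Igkc (-1.16), the barcodes with 0 to 9 haemoglobin UMIs turned Tpm2 (0.39), Fabp4 (-0.14) and Igkc (-0.76), and the threshold of 60% turned Fabp4 (-0.11). The 15 genes with the largest rise passed with the same sign under all alternatives in which they could be tested. At 60% or more, 1634 barcodes remained, Hbb-bs held 64.7% and Hbb-bt 12.5% of haemoglobin UMIs, and of non-globin UMIs mitochondrial genes held 41.4%, erythroid markers 2.60% and smooth muscle markers 1.58%. At 80% or more there were 0 barcodes, and no red cell barcode with a hashtag had at most 10% mitochondrial UMIs among its non-globin UMIs, so neither alternative was run. Depth limits what can be said of rare transcripts: a red cell barcode held a median of 753 non-globin UMIs, and only the 16.5% of these barcodes with a single hashtag entered the test.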
